A study of Mus musculus with 9 samples.

Results

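Claudins are membrane proteins that seal the space between neighbouring cells, and 8 of them with known places in brain barriers, myelin or glia were followed through sorted cells of the adult mouse brain. The 8 genes (Cldn1, Cldn2, Cldn3, Cldn5, Cldn9, Cldn10, Cldn11 and Cldn12) were taken by name from the array, which carried 27493 named genes. They had 9 probes, 2 of them for Cldn1, and all 8 genes were among the 24891 that passed the filter on dim probes. Each of the 3 groups had 3 arrays, called replicates A, B and C. One group held Sox2-GFP cells from the SVZ (subventricular zone), which lines the lateral ventricle and houses neural stem cells. Another held Sox2-GFP cells from the hippocampus, and the last DCX-DsRed cells from the hippocampus. Sox2-GFP mice make green fluorescent protein under the promoter of Sox2, a stem cell transcription factor, and DCX-DsRed mice make a red fluorescent protein driven by the Dcx promoter, active in newborn neurons. The mice of every group were 6 to 8 weeks old, and all cells were isolated by enzymatic dissociation and fluorescence sorting. For each experiment tissue of 10 dissections was pooled, and each array carried amplified RNA of 1000 cells.

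Claudins span the membrane 4 times and pair with claudins of the neighbouring cell to form the strands of tight junctions, where some seal and others form pores for ions or water. In the brain they are best known from the endothelium of blood vessels, from the choroid plexus epithelium that secretes cerebrospinal fluid, and from the myelin sheath. Occludin, junctional adhesion molecules and scaffold proteins such as the ZO proteins bind or accompany the strands.

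The promoters of Cldn1, Cldn2 and Cldn11 are shown because these were the claudins that passed the test in any comparison below. RefSeq promoter windows (build GRCm38.p6) were found for 7 of the 8 genes, 10 windows in all, and Cldn9 was not among them. Each sequence is the 250 bases before the annotated start, written 5′ to 3′ on the strand of the gene, with any TATAAA or TTTAAA in capitals. Cldn1 lies on the minus strand at chr16:26371840-26372089, Cldn2 on the plus strand at chrX:139800558-139800807 and Cldn11 on the plus strand at chr3:31149670-31149919.
Cldn1: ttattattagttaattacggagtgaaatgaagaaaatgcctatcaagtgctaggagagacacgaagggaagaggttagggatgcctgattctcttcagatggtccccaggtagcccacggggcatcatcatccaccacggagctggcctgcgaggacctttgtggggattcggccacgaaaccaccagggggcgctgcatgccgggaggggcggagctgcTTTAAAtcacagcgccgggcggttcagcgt
Cldn2: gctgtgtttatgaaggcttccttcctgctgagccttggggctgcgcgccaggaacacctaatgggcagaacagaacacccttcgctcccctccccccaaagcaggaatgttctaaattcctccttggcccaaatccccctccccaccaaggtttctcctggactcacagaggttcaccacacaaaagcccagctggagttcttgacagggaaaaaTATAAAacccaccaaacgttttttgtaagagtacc
Cldn11: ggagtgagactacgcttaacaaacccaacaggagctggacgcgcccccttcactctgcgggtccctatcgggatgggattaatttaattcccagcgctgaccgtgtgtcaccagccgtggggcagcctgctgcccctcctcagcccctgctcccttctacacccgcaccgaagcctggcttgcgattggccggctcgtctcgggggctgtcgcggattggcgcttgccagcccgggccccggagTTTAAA
The TATAAA of Cldn2 began at position -35 and the TTTAAA of Cldn1 at -30, counted back from the start, while the TTTAAA of Cldn11 began at -6. Of all 32851 promoters in the table, 12.4% held TATAAA and 12.1% TTTAAA on either strand within these 250 bases (the letters of TTTAAA read the same on both strands). On the strand of the gene, 1.87% held TATAAA and 1.18% TTTAAA starting 40 to 26 bases before the start. The GC box GGGCGG was found for Cldn1 (2 matches), Cldn3, Cldn5, Cldn10 (3 matches) and Cldn12, and in 32.7% of all promoters. Not every window of Cldn10 and Cldn12 held it. TAATCC, the core motif of Otx homeobox factors, was found in the Cldn11 window and in 6.25% of all promoters, and CCAAT in 33.8% of them. The Cldn1 and Cldn11 windows held 14 and 19 CpG sites, the Cldn2 window 4, and the median promoter 6. These matches describe the letters of the windows.

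All levels below are log2 signals measured from the 75th percentile of the same array, so 0 is that percentile and a step of 1 is a factor of 2. Between 80.5% and 88.6% of spots per array were well above background. Hippocampal Sox2-GFP replicate C correlated across genes at 0.816 with A and 0.783 with B of its group, which correlated at 0.919. Pairs of SVZ arrays correlated at 0.82 to 0.84 and pairs of DCX-DsRed arrays at 0.869 to 0.917. Hippocampal Sox2-GFP C stood apart in its group by its summed signal of 12 astrocyte markers. This was 7.19 times the 75th percentile, against 93.5 and 111 on A and B. The arrays lay on 3 slides: SVZ A, DCX-DsRed A and DCX-DsRed B on slide 1, hippocampal Sox2-GFP A and B on slide 2, and the other 4 on slide 3. Neither Sox2 nor Dcx mRNA was ordered as the sort labels are. Sox2 lay between 0.91 and 2.27 on the SVZ arrays, between -0.95 and 0.94 on the hippocampal Sox2-GFP arrays and between 1.29 and 1.70 on the DCX-DsRed arrays. Dcx lay between -2.37 and 3.04 on the SVZ arrays, between -2.88 and -0.20 on the hippocampal Sox2-GFP arrays and between -1.31 and 1.28 on the DCX-DsRed arrays. Groups are therefore called by their labels, not as stem cells or neurons.

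**Figure D1:**
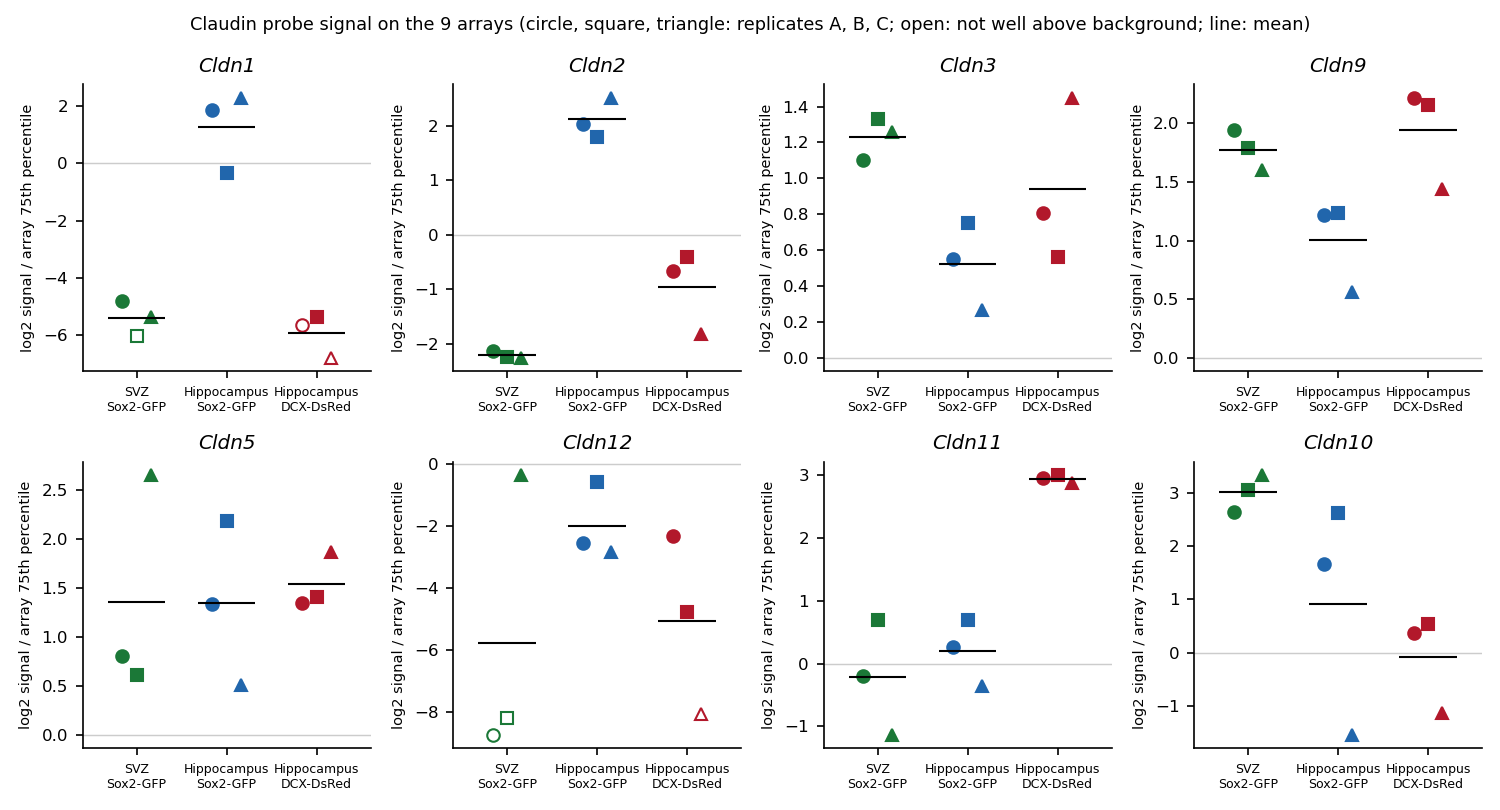
Signal of each claudin on each array, as log2 relative to the array's 75th percentile (vertical axes, each with its own range), by group (horizontal). Circles, squares and triangles are replicates A, B and C, open symbols are arrays on which the probe was not well above background, and lines are group means. Cldn1 and Cldn2 stand highest on the 3 hippocampal Sox2-GFP arrays and Cldn11 on the 3 DCX-DsRed arrays, at 2.87 to 3.0, while the Cldn5 groups overlap.

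Among the claudins of the choroid plexus epithelium, Cldn1 and Cldn2 were far higher in hippocampal Sox2-GFP cells than in either other group, whereas no difference of Cldn3 or Cldn9 was called. Cldn1 encodes a sealing claudin of epithelia that the choroid plexus also makes. Cldn1 read -4.81, -6.03 and -5.38 on SVZ Sox2-GFP arrays A, B and C, 1.88, -0.35 and 2.30 on the hippocampal Sox2-GFP arrays, and -5.64, -5.37 and -6.80 on the DCX-DsRed arrays. All 3 hippocampal Sox2-GFP arrays lay above every other array, and the SVZ and DCX-DsRed arrays overlapped near the limit of detection. The probe was well above background on SVZ A and C, on all hippocampal Sox2-GFP arrays and on DCX-DsRed B.

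Cldn1 was 149-fold higher in hippocampal Sox2-GFP than in DCX-DsRed cells (log2 difference 7.21, SE 0.74, limma adjusted p = 0.0035). Leaving out hippocampal Sox2-GFP replicate B, the lowest of its group, gave 261-fold, and leaving out replicate C gave 104-fold. The size rests on DCX-DsRed signals at background on 2 of 3 arrays: with signals not well above background raised to the array's lowest signal that was, the fold was 105, and 99.3 for SVZ against hippocampal Sox2-GFP cells. In SVZ cells Cldn1 was 103-fold lower than in hippocampal Sox2-GFP cells (log2 difference -6.68, SE 0.74, adjusted p = 0.0123), 181-fold after leaving out hippocampal Sox2-GFP replicate B, and 83.4-fold and not called without replicate A (adjusted p = 0.0546). With these 2 groups fitted alone it was not called either (adjusted p = 0.0848). The difference between SVZ and DCX-DsRed cells was 0.53 (adjusted p = 0.835). Fitted with a slide block, which leaves hippocampal Sox2-GFP C alone for its group, the first 2 differences were 8.97 and -8.08, and within slide 3, with 1 hippocampal Sox2-GFP array, 9.10 and -8.01. Normexp background correction gave smaller folds, 32.6 and 27.6, and so did the mean of both Cldn1 probes, 88.5 and 58.8. In such sorted pools, more cells that make an mRNA and more mRNA per cell cannot be told apart.

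The second Cldn1 probe, well above background on 4 arrays, passed the filter on dim probes only through the hippocampal Sox2-GFP arrays. It went the same way without passing the test. It read -8.99, -4.34 and -8.18 on the SVZ arrays, of which only B was well above background, and -2.62, -4.03 and 0.37 on the hippocampal Sox2-GFP arrays. On the DCX-DsRed arrays it read -7.28, -8.08 and -8.09, all not well above background. It was at least 11.1-fold higher in hippocampal Sox2-GFP than in DCX-DsRed cells (probe-level adjusted p = 0.0742), and it differed by -5.07 between SVZ and hippocampal Sox2-GFP cells (adjusted p = 0.226).

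Cldn2 encodes the pore-forming claudin of leaky epithelia, which lets cations and water pass between cells. Cldn2 read -2.13, -2.25 and -2.26 on the SVZ arrays, 2.04, 1.80 and 2.52 on the hippocampal Sox2-GFP arrays, and -0.67, -0.41 and -1.81 on the DCX-DsRed arrays. The probe was well above background on all 9 arrays, and no group overlapped another: hippocampal Sox2-GFP was highest and SVZ lowest. Cldn2 was 8.46-fold higher in hippocampal Sox2-GFP than in DCX-DsRed cells (log2 difference 3.08, SE 0.42, adjusted p = 0.00972). It was 20.2-fold lower in SVZ than in hippocampal Sox2-GFP cells (log2 difference -4.33, SE 0.42, adjusted p = 0.00835). The step between SVZ and DCX-DsRed cells, -1.25 with a 95% interval of -2.22 to -0.28, did not pass (adjusted p = 0.224), except with array weights (-1.64, adjusted p = 0.0314). Fitted with a slide block, Cldn2 was 15.4-fold higher in hippocampal Sox2-GFP cells than in DCX-DsRed cells, and 31.3-fold lower in SVZ than in hippocampal Sox2-GFP cells. Both values rest on hippocampal Sox2-GFP C, the array that stood apart and had the highest choroid plexus marker sum described below.

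Cldn3, a sealing claudin reported in choroid plexus epithelium, kept within 1.18 log2 units over the 9 arrays. It read 1.1, 1.33 and 1.26 on the SVZ arrays, 0.55, 0.75 and 0.27 on the hippocampal Sox2-GFP arrays, and 0.81, 0.56 and 1.45 on the DCX-DsRed arrays, all well above background. Its lowest group was hippocampal Sox2-GFP, which overlapped DCX-DsRed but not SVZ. The difference between hippocampal Sox2-GFP and DCX-DsRed cells was -0.42 (95% interval -1.18 to 0.35, adjusted p = 0.575), and that between SVZ and hippocampal Sox2-GFP cells was 0.71 (interval -0.06 to 1.47, adjusted p = 0.497).

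Cldn9, known from the choroid plexus and the inner ear, read 1.94, 1.79 and 1.60 on the SVZ arrays, 1.22, 1.24 and 0.56 on the hippocampal Sox2-GFP arrays, and 2.22, 2.16 and 1.44 on the DCX-DsRed arrays. All arrays were well above background, and the hippocampal Sox2-GFP arrays lay below all others. The difference between hippocampal Sox2-GFP and DCX-DsRed cells, -0.93 (interval -1.74 to -0.12), did not pass (adjusted p = 0.227), except with array weights (-0.92, adjusted p = 0.0163). That between SVZ and hippocampal Sox2-GFP cells was 0.77 (interval -0.04 to 1.58, adjusted p = 0.484). Both Cldn3 and Cldn9 had their lowest mean in the group in which Cldn1 and Cldn2 were highest.

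Choroid plexus markers as a list were, like Cldn1 and Cldn2, highest in hippocampal Sox2-GFP cells. Of 13 measured markers, 10 were called higher and 0 lower in hippocampal Sox2-GFP than in DCX-DsRed cells, where 1.76% of all genes were higher. The median difference was 4.62, against -0.07 for all genes. Tmem72, 1 of those called, and Aqp1 passed the filter on dim probes only through the hippocampal Sox2-GFP arrays. In SVZ against hippocampal Sox2-GFP cells, 5 markers were lower and 0 higher (median -4.09, all genes 0.07), where 0.362% of all genes were lower. Tmem72 was 1 of these 5 too, and both medians include Tmem72 and Aqp1. Between SVZ and DCX-DsRed cells limma called 0 markers (2 at an unadjusted p under 0.05). Their median there was -0.05, where Cldn2 differed by -1.25. The summed marker signal was 2.89 to 4.21 times the 75th percentile on the SVZ arrays, 58.9 to 205 on the hippocampal Sox2-GFP arrays and 2.86 to 4.74 on the DCX-DsRed arrays, and 9 to 13 of the 13 markers were well above background on each array.

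Ttr, which encodes the transthyretin that this epithelium secretes, read -4.85 to -2.10 on the SVZ arrays, 5.03 to 6.43 on the hippocampal Sox2-GFP arrays and -5.09 to -1.18 on the DCX-DsRed arrays. Folr1, its folate receptor gene, read -0.62 to 0.17 on the SVZ arrays, 1.85 to 4.69 on the hippocampal Sox2-GFP arrays and -0.36 to 0.03 on the DCX-DsRed arrays, and Kcnj13 had no probe of that name. The call of Folr1 against DCX-DsRed cells was lost without any 1 DCX-DsRed array (limma adjusted p = 0.0964 to 0.125). It was lost in other refits too, such as with these 2 groups alone (adjusted p = 0.0842). Ttr kept its call there in every refit that included it. Ependymal genes were also higher in hippocampal Sox2-GFP than in DCX-DsRed cells, with 6 of 10 called, against 1.76% of all genes. Foxj1, the transcription factor of motile cilia, was at 1.38 to 1.91 on the hippocampal Sox2-GFP arrays against -5.13 to -2.65 on the DCX-DsRed arrays. The summed ependymal signal was 3.5 to 7.37 on the SVZ arrays, 17.8 to 32.1 on the hippocampal Sox2-GFP arrays and 1.38 to 3.46 on the DCX-DsRed arrays. The part of these cells in the Cldn1 and Cldn2 differences was not tested.

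**Figure D2:**
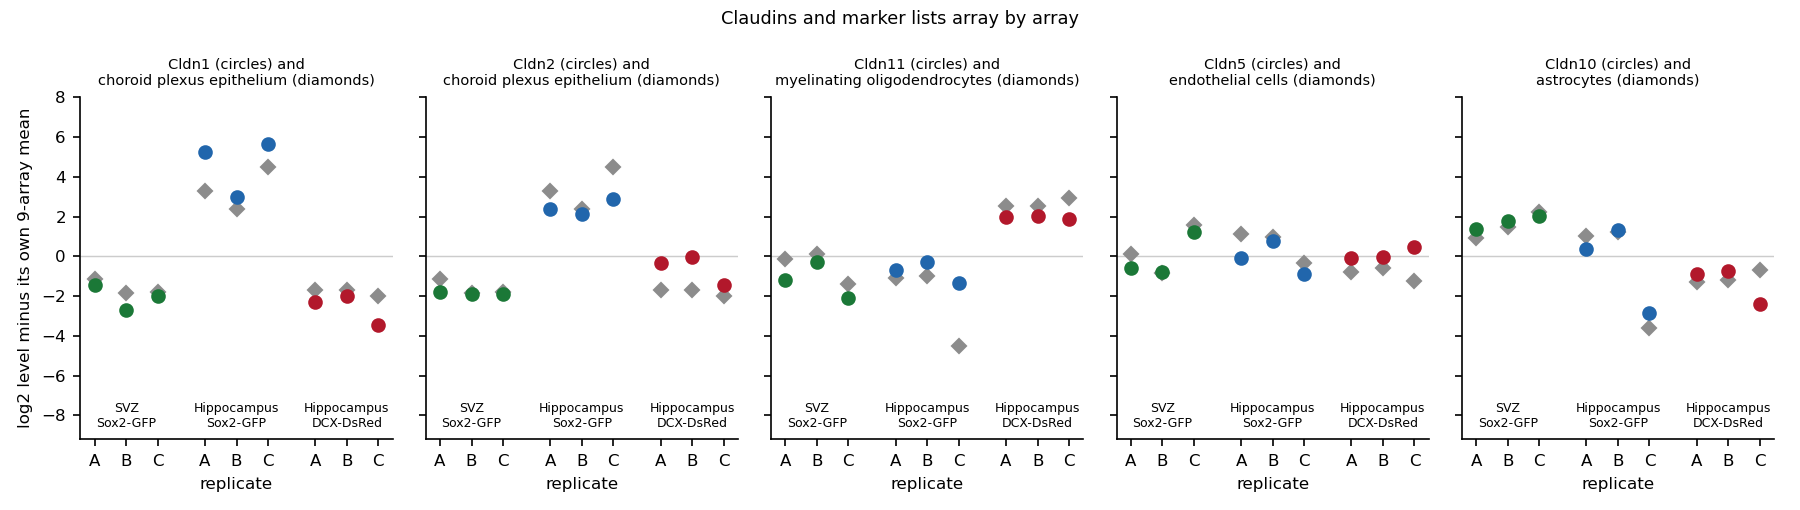
Array by array, each claudin (coloured circles) and the mean of a marker list (grey diamonds), both as log2 level minus its own mean over the 9 arrays (vertical), with replicates A, B and C of each group along the horizontal axis. Cldn1 and Cldn2 stand above their means on the 3 hippocampal Sox2-GFP arrays, as does the choroid plexus list, Cldn11 stands above its mean on the 3 DCX-DsRed arrays, as does the myelin list, and Cldn10 is low on hippocampal Sox2-GFP replicate C, as is the astrocyte list.

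Cldn11, the claudin of the myelin sheath, where it forms the strands of the radial component, was highest in DCX-DsRed cells. Cldn11 read -0.19, 0.69 and -1.14 on the SVZ arrays, 0.27, 0.69 and -0.35 on the hippocampal Sox2-GFP arrays, and 2.95, 3.0 and 2.87 on the DCX-DsRed arrays, all well above background. The DCX-DsRed arrays lay close together and above all others, and both Sox2-GFP groups overlapped. Cldn11 was 6.67-fold lower in hippocampal Sox2-GFP than in DCX-DsRed cells (log2 difference -2.74, SE 0.50, adjusted p = 0.0278) and 8.91-fold lower in SVZ than in DCX-DsRed cells (-3.15, SE 0.50, adjusted p = 0.0257). SVZ and hippocampal Sox2-GFP cells differed by -0.42 (interval -1.55 to 0.72, adjusted p = 0.8).

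The size of these Cldn11 differences held more firmly than the calls. Over 20 refits the first difference ran between -3.24 and -2.46 and the second between -3.61 and -2.69, and within slide 1 the second was -3.16 and within slide 3 -3.10. The first call was lost without any 1 of the 6 hippocampal arrays (adjusted p = 0.0513 to 0.0998) and with slide as a block (adjusted p = 0.0618). The second was lost without SVZ A or C, hippocampal Sox2-GFP A or any 1 DCX-DsRed array (adjusted p = 0.0541 to 0.103).

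Myelin markers were, like Cldn11, highest in DCX-DsRed cells. Of 14 markers of myelinating oligodendrocytes, 8 were called lower and 0 higher in hippocampal Sox2-GFP than in DCX-DsRed cells (median -4.74). In SVZ against DCX-DsRed cells, 2 were lower and 0 higher (median -3.21). Of all genes, 1.42% and 0.964% were called lower in these comparisons. Between SVZ and hippocampal Sox2-GFP cells limma called 0 (3 at an unadjusted p under 0.05), with a median of 1.42 where Cldn11 differed by -0.42. All 14 were well above background on every array except hippocampal Sox2-GFP C, where 12 were. Their summed signal was 29.6 to 91 times the 75th percentile on the SVZ arrays, 5.5 to 47.7 on the hippocampal Sox2-GFP arrays and 322 to 430 on the DCX-DsRed arrays. Mbp, the myelin basic protein gene, read -0.50 to 3.10 on the SVZ arrays, -2.51 to 2.55 on the hippocampal Sox2-GFP arrays and 5.04 to 5.50 on the DCX-DsRed arrays. Mog, the myelin oligodendrocyte glycoprotein gene, read -0.58 to 1.37 on the SVZ arrays, -3.35 to 0.06 on the hippocampal Sox2-GFP arrays and 3.84 to 4.76 on the DCX-DsRed arrays. On hippocampal Sox2-GFP replicate C, Mbp and Mog were at their lowest, whereas Cldn11 was at -0.35, above SVZ replicate C. The part of myelinating cells in the Cldn11 difference was not tested.

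Cldn5, the main claudin of the brain endothelium, showed no called difference. Cldn5 read 0.81, 0.62 and 2.66 on the SVZ arrays, 1.34, 2.19 and 0.51 on the hippocampal Sox2-GFP arrays, and 1.35, 1.41 and 1.87 on the DCX-DsRed arrays. Every array was well above background, all groups overlapped, and the highest and second lowest of all 9 values were SVZ arrays. The difference was -0.20 between hippocampal Sox2-GFP and DCX-DsRed cells (95% interval -1.65 to 1.25, adjusted p = 0.911), -0.19 between SVZ and DCX-DsRed cells (-1.63 to 1.26, adjusted p = 0.945) and 0.01 between SVZ and hippocampal Sox2-GFP cells (-1.44 to 1.46, adjusted p = 0.997). These intervals allow steps of more than 2-fold either way.

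Endothelial markers shared some of the high and low arrays of Cldn5. Of 14 measured, 2 were called higher and 0 lower in hippocampal Sox2-GFP than in DCX-DsRed cells (1.76% of all genes were higher). Of these 2, 1 was Ocln, which is also a junction partner below. In SVZ against DCX-DsRed cells 1 was higher and 0 lower (0.538% of all genes were higher). Between SVZ and hippocampal Sox2-GFP cells 0 markers were called (1 at an unadjusted p under 0.05). Their summed signal was 11.8, 8.34 and 17.5 times the 75th percentile on SVZ A, B and C, 14.5, 13.1 and 9.56 on the hippocampal Sox2-GFP arrays and 9.99, 9.26 and 7.12 on the DCX-DsRed arrays. Among the SVZ arrays, C was highest and B lowest for both measures. In hippocampal Sox2-GFP cells C was lowest for both, but Cldn5 was highest on B and the marker sum on A, and DCX-DsRed C had the highest Cldn5 and the lowest marker sum of its group. Pecam1, an endothelial adhesion gene, read -1.34 to 0.40 on the SVZ arrays, -1.35 to -0.08 on the hippocampal Sox2-GFP arrays and -0.99 to -0.29 on the DCX-DsRed arrays. Cdh5, which encodes the endothelial cadherin, was dim, at -6.01 to -2.70 on the SVZ arrays, -5.53 to -4.20 on the hippocampal Sox2-GFP arrays and -6.65 to -4.57 on the DCX-DsRed arrays, and not well above background on SVZ B and DCX-DsRed C. The part of endothelial cells in the Cldn5 values was not tested.

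Cldn12, an atypical claudin without the tail motif that binds ZO proteins, was the least steady of the 8. Cldn12 read -8.76, -8.19 and -0.34 on the SVZ arrays, 2 of them not well above background, -2.56, -0.56 and -2.84 on the hippocampal Sox2-GFP arrays, and -2.32, -4.78 and -8.06 on the DCX-DsRed arrays, of which C was not well above background. SVZ C was higher than all other arrays while SVZ A and B were the lowest, so the groups overlapped throughout. Its standard deviation within groups, 3.27, was larger than that of 99.8% of genes, but it includes the signals not well above background. No difference passed: 3.07 (SE 2.29, adjusted p = 0.55) between hippocampal Sox2-GFP and DCX-DsRed cells, -0.71 (adjusted p = 0.941) between SVZ and DCX-DsRed cells, and -3.78 (adjusted p = 0.599) between SVZ and hippocampal Sox2-GFP cells. Between SVZ and DCX-DsRed cells even the direction turned between slides, at -5.21 within slide 1 and 3.80 within slide 3. Both values use signals not well above background. With such signals raised as for Cldn1, the difference over all arrays of these groups was 0.02.

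Cldn10, a claudin gene of astrocytes that in kidney forms paracellular ion channels, was highest in SVZ cells. Cldn10 read 2.64, 3.06 and 3.34 on the SVZ arrays, 1.66, 2.63 and -1.55 on the hippocampal Sox2-GFP arrays, and 0.37, 0.54 and -1.14 on the DCX-DsRed arrays, all well above background. The SVZ arrays lay above all others by a small margin over hippocampal Sox2-GFP B, and hippocampal Sox2-GFP C was the lowest of the 9. RefSeq has 2 starts for this gene in the promoter table, and which transcripts its 1 probe reads was not examined.

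No Cldn10 difference passed in the fit with group as the only term. SVZ and DCX-DsRed cells differed by 3.09 (8.51-fold, SE 1.00, adjusted p = 0.208), SVZ and hippocampal Sox2-GFP cells by 2.10 (adjusted p = 0.503), and hippocampal Sox2-GFP and DCX-DsRed cells by 0.99 (adjusted p = 0.672). Without hippocampal Sox2-GFP C the first passed at the same size (adjusted p = 0.0269), the second was 0.87 (adjusted p = 0.783) and the third 2.22 (adjusted p = 0.107). Fitted with a slide block, where C alone stands for hippocampal Sox2-GFP, the values were 3.26 (adjusted p = 0.043), 4.39 (adjusted p = 0.027) and -1.13 (adjusted p = 0.458). Within slide 3 they were 4.34, 4.75 and -0.41.

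Astrocyte markers were also low on hippocampal Sox2-GFP C, but not on DCX-DsRed C, where Cldn10 was low too and the marker sum was the highest of its group. Their summed signal was 102, 133 and 218 times the 75th percentile on SVZ A, B and C, 93.5, 111 and 7.19 on the hippocampal Sox2-GFP arrays, and 23.9, 22.2 and 33.8 on the DCX-DsRed arrays. Aqp4, the water channel gene of astrocyte endfeet, read 3.56 to 4.34 on the SVZ arrays, 3.25, 3.51 and -1.83 on the hippocampal Sox2-GFP arrays, and -0.14 to 0.58 on the DCX-DsRed arrays. Gfap, the astrocyte filament gene, read 1.12 to 2.34 on the SVZ arrays, 0.65 to 2.89 on the hippocampal Sox2-GFP arrays and 1.48 to 1.73 on the DCX-DsRed arrays. Of the 12 markers 0 were called by limma in any comparison, although 6 had an unadjusted p under 0.05 between SVZ and DCX-DsRed cells (median difference 2.69) and 0 in the other comparisons. The part of astrocytes in the Cldn10 values was not tested.

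**Figure D3:**
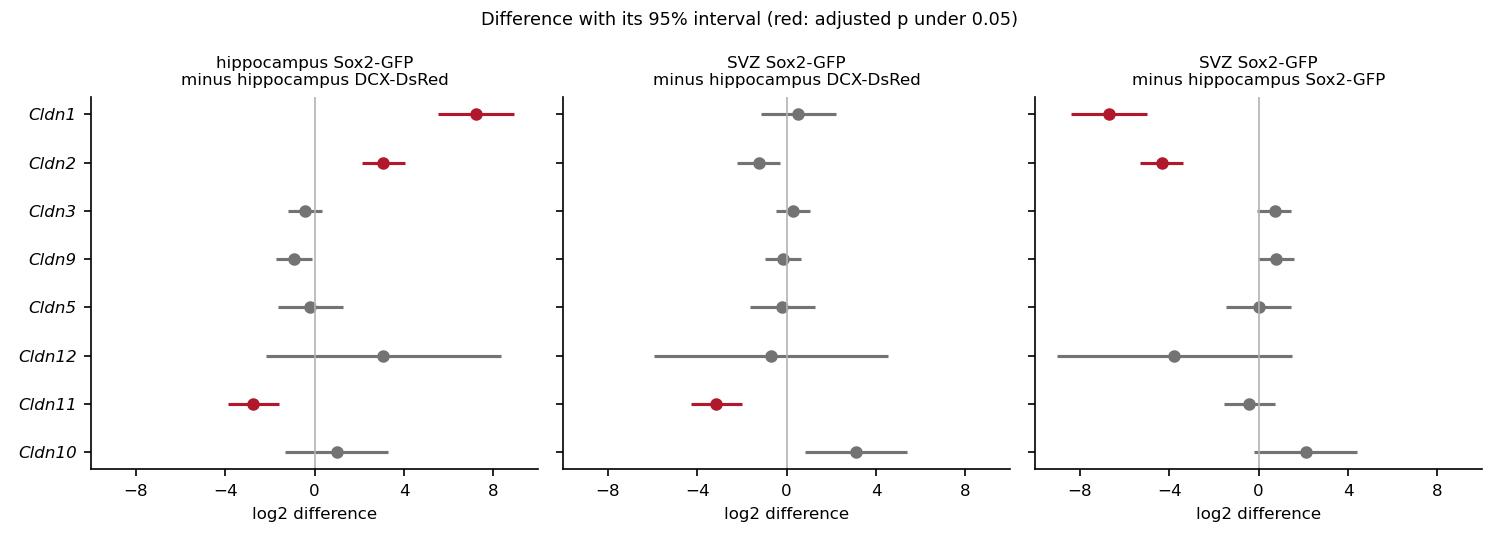
Log2 difference of each claudin (horizontal) with its 95% interval from limma in 3 comparisons, red where the adjusted p is under 0.05. Cldn1 and Cldn2 are called in the left and right panels, in opposite directions, and Cldn11 in the first and second. The interval of Cldn12 is the widest.

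Counted over the 8 genes, 3 were called between hippocampal Sox2-GFP and DCX-DsRed cells, 2 higher and 1 lower, where 3.18% of all genes were called, 1.76% higher and 1.42% lower. Between SVZ and DCX-DsRed cells 1 was called, lower (1.5% of all genes, 0.538% higher and 0.964% lower), and between SVZ and hippocampal Sox2-GFP cells 2 were, both lower (0.406% of all genes, 0.0442% higher and 0.362% lower). Groups did not overlap for 4, 3 and 5 of the 8 genes in these comparisons, against 24.8%, 21.1% and 16.8% of all genes. The median differences of the 8 were 0.39, -0.17 and -0.20, against -0.07, -0.02 and 0.07 for all genes. The comparisons share groups, so the calls of a gene in a pair of them are not independent. With 3 arrays a group and the members chosen with earlier results known, these counts describe the 8 genes only.

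Among 27 junction partners limma called 4 higher and 0 lower in hippocampal Sox2-GFP cells relative to DCX-DsRed cells. Of all genes, 1.76% were called higher there and 1.42% lower. Between SVZ and DCX-DsRed cells 1.5% of all genes were called, and between SVZ and hippocampal Sox2-GFP cells 0.406%, but 0 partners in either. Between SVZ and DCX-DsRed cells 4, and between SVZ and hippocampal Sox2-GFP cells 8, had an unadjusted p under 0.05, and whether the comparisons differ was not tested. F11r was 25.7-fold lower in SVZ than in hippocampal Sox2-GFP cells without passing (adjusted p = 0.0585). The median difference of the partners in the hippocampal comparison was -0.16, against -0.07 for all genes. F11r, the gene of junctional adhesion molecule A, read -1.85, -1.14 and -2.53 on the SVZ arrays, 3.15, 1.53 and 3.86 on the hippocampal Sox2-GFP arrays, and -1.92, -0.39 and -2.71 on the DCX-DsRed arrays. Cgnl1, the gene of the junction scaffold paracingulin, read 1.35, -3.02 and -2.29 on the SVZ arrays, 3.24, 2.39 and 3.94 on the hippocampal Sox2-GFP arrays, and -2.94, -2.91 and -4.30 on the DCX-DsRed arrays. As for Cldn1 and Cldn2, the hippocampal Sox2-GFP arrays were highest and did not overlap the others.

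F11r was 22.9-fold higher in hippocampal Sox2-GFP than in DCX-DsRed cells (adjusted p = 0.023) and Cgnl1 95.3-fold (adjusted p = 0.0191). Ocln, the gene of the strand protein occludin, was 49.8-fold higher (adjusted p = 0.0208), or 34.1-fold with its 2 DCX-DsRed signals at background raised as for Cldn1, and Patj, a polarity scaffold gene, 7.58-fold (adjusted p = 0.0433). Ocln reached -0.81 on SVZ C, against -4.12 and -5.00 on SVZ A and B, and C was also the SVZ array with the most Cldn5 and Cldn12. These calls were fragile: without hippocampal Sox2-GFP A or any 1 DCX-DsRed array, adjusted p ran between 0.0609 and 0.15 for Cgnl1, Ocln and Patj. F11r was lost without hippocampal Sox2-GFP A, DCX-DsRed A or DCX-DsRed C (adjusted p = 0.0711 to 0.0902), and its fold was 36.2 without hippocampal Sox2-GFP B and 35.8 without DCX-DsRed B. Ocln was also lost without hippocampal Sox2-GFP B (adjusted p = 0.0612), and Patj without any 1 of the 9 arrays, with a fold of 4.91 without hippocampal Sox2-GFP C. With the 2 groups alone F11r (adjusted p = 0.0552) and Patj (0.0961) were lost, and Patj also when scaled to the array median (adjusted p = 0.0735). Slide as a block ended the call of Ocln (38.1-fold, adjusted p = 0.113). Slide as a block raised the folds of F11r, Cgnl1 and Patj to 66.1, 555 and 23.3, the mean over probes gave 18.5 for Cgnl1 and 17.7 for Patj, and normexp gave 10.3 for Ocln.

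Of 14 other claudins measured, limma called 0 between SVZ and DCX-DsRed cells and 0 between SVZ and hippocampal Sox2-GFP cells. Of all genes, 1.5% and 0.406% were called there. At an unadjusted p under 0.05 there were 3 and 1 of these claudins. In hippocampal Sox2-GFP cells relative to DCX-DsRed cells 0 of them were called higher and 1 lower, against 1.76% and 1.42% of all genes. That gene, Cldn34c1, read -0.75, -0.001 and -0.79 on the SVZ arrays and -0.51, -0.56 and -1.08 on the hippocampal Sox2-GFP arrays against 1.23, 1.18 and 0.83 on the DCX-DsRed arrays, 3.47-fold lower in the hippocampal comparison (adjusted p = 0.0337), a call lost without any 1 of the 6 hippocampal arrays (adjusted p = 0.0651 to 0.124), with slide as a block (0.0541) and with the 2 groups alone (0.0579). The median differences of the other claudins were -0.26 in the hippocampal comparison, -0.32 between SVZ and DCX-DsRed cells and -0.03 between SVZ and hippocampal Sox2-GFP cells. For all genes they were -0.07, -0.02 and 0.07.

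The claudins also differed in how steady they were and in which of them varied together. Over the 9 arrays Cldn1 spanned 9.10 log2 units, more than 99.4% of genes, and Cldn12 8.42, while Cldn3 spanned 1.18, more than 14.1% of genes. The low ends of the Cldn1 and Cldn12 spans were signals not well above background. Cldn1 and Cldn2 correlated at r = 0.93 over the 9 arrays, Cldn2 and Cldn3 at -0.87, and Cldn1 and Cldn9 at -0.79. Cldn11 correlated at -0.49 with Cldn10 and at -0.12 with Cldn2. The 9 arrays share 3 groups and 3 slides, and these values describe these arrays only.

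The genes most like each claudin were sought among 16509 named genes by Pearson correlation over the same 9 arrays. For Cldn1 they were Mlf1 (r = 0.997), Bad (0.993) and Rab11fip1 (0.985), and for Cldn2 Nucb2 (0.982), Atp2b3 (0.982) and Ctnnal1 (0.978). Mlf1 read -4.98, -6.28 and -5.59 on the SVZ arrays, 0.14, -1.20 and 1.31 on the hippocampal Sox2-GFP arrays, and -5.61, -5.72 and -6.60 on the DCX-DsRed arrays, the same lowest replicate B as Cldn1 in the hippocampal Sox2-GFP group. Like Cldn1, it was not well above background on SVZ B, DCX-DsRed A and DCX-DsRed C. For Cldn11 they were Scel (0.978), Frmd5 (0.977) and Errfi1 (0.977), and for Cldn10 Dkk3, Gpr37l1 (both 0.988) and Hhipl1 (0.986). Dkk3 shared the low hippocampal Sox2-GFP C, at -5.23 against -0.79 and 0.004 on A and B.

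For Cldn9 the closest were Otog, Gpd2 (both 0.982) and Chd4 (0.98), for Cldn5 Dnajc15 (0.965), Wdr75 (0.962) and G6pc3 (0.936), for Cldn3 Haus6 (0.937), Dner (0.935) and Atp7b (0.926), and for Cldn12 Tmem102 (0.946), Cdc14b (0.926) and Cetn4 (0.914). Genes with r over 0.9 numbered 188 for Cldn1, 160 for Cldn9, 158 for Cldn10, 143 for Cldn11 and 112 for Cldn2, and only 10, 6 and 5 for Cldn5, Cldn3 and Cldn12. With 9 arrays in 3 groups, many genes reach such values, and the order among the closest genes rests on small differences.

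Of 8 microglial genes 0 were called in any comparison by limma, and at most 2 were at an unadjusted p under 0.05. Of 10 oligodendrocyte precursor genes and 9 newborn neuron genes 0 were called as well, with up to 6 and up to 3 at an unadjusted p under 0.05. Cx3cr1, the fractalkine receptor gene of microglia, read -2.02 to -1.83 on the SVZ arrays, -1.45 to -0.94 on the hippocampal Sox2-GFP arrays and -1.58 to -0.98 on the DCX-DsRed arrays. Meningeal fibroblasts border the arachnoid barrier, where Cldn11 is also known. Of 9 pericyte and meningeal markers, 2 were higher and 0 lower in hippocampal Sox2-GFP cells relative to DCX-DsRed cells (1.76% of all genes were higher). In the other comparisons limma called 0 of these markers. There 1 (SVZ against DCX-DsRed) and 3 (SVZ against hippocampal Sox2-GFP) of the markers had an unadjusted p under 0.05. Their summed signal was 3.7 to 4.98 on the SVZ arrays, 4.57 to 5.05 on the hippocampal Sox2-GFP arrays and 1.88 to 3.11 on the DCX-DsRed arrays. The part of these cells in the Cldn11 values was not tested.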

How the data were processed

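Expression was measured on 9 Agilent arrays read in 1 colour. Per the file headers, the authors' spot intensities came from Agilent Feature Extraction 9.5.1.1, whose deposited processed intensity had a fitted spatial surface subtracted and spatial trends removed. Deposited flags, an other kind of column holding 0 or 1, marked spots well above background, saturated or outlying, per the file headers. Limma is named, without a step, in the submitters' processing notes.

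Control and outlier spots were left out, spots of a probe were averaged, and log2 processed intensity was set against the array's own 75th percentile of non-control probes. Outlier flags removed 464 of 41174 probes, none of a claudin. The 1 file that a spreadsheet program had altered in 47 gene symbols gave no names. Of the probes, 22951 were named by accession and 3109 by an older symbol through a RefSeq table (assembly GRCm38.p6), and 15114 kept the file's name. Probes well above background on at least 3 arrays were kept, the brightest standing for its gene, which left 24891 genes. Limma 3.58.1 (R 4.3.3, lmFit and eBayes) was fitted to all 9 arrays with group as the only term (6 residual degrees of freedom). P-values were adjusted across all genes by Benjamini and Hochberg's method, and 0.05 was the threshold. A fold against a group with no array well above background is given as "at least", from the higher of the probe's own signal and the array's lowest signal well above background. The code of the fit was tested on simulated data with independent errors and no slide effect, which does not bear on the calls above.

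All 8 members are described on every array. The 3 genes most like each member were chosen by Pearson correlation, called junction partners and other claudins are named, and marker genes are named from lists. The members, lists and rules were chosen with earlier results of these data known. Alternatives were the background correction, scaling, filters, probe averaging, slide, replicate letter, the 2 groups alone, array weights and each array left out. The number of arrays limits the precision. Whether replicates were separate animal pools is not in the labels, so the p-values reflect the spread among these samples alone, and it may be technical. Probe coordinates are not reported, since their build is not given in the sources used here.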

Additional observations from a re-analysis of the deposited data

How the results depend on the processing

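Each result was refitted under 20 other settings (19 for Cldn1 and Cldn12), and within slide 3 as a value with no test. Differences within slide 1, and those with dim signals raised to the array's lowest signal well above background, were added after seeing the data. Between hippocampal Sox2-GFP and DCX-DsRed cells, 2 to 4 claudins were called in every setting (3 with all arrays), Cldn2 in 20 of 20 and Cldn1 in 19 of 19. Between SVZ and DCX-DsRed cells 1 was called, but 2 with slide as a block, 2 with array weights, and 0 to 2 with 1 array left out. Between SVZ and hippocampal Sox2-GFP cells 2 were called, but 1 where probes had to be well above background on all 9 arrays (6 claudins then remained, without Cldn1 and Cldn12), 1 with the 2 groups alone, 0 with the replicate block, and 1 to 2 with 1 array left out; slide as a block gave 3. In that replicate block Cldn1 and Cldn2 both had an adjusted p of 0.0623, and in the hippocampal comparison F11r (0.0689), Patj (0.0922) and Cldn34c1 (0.0504) were lost too. The labels do not say what a replicate letter marks. All C arrays lay on slide 3, and SVZ A and DCX-DsRed A on slide 1, so letter and slide are partly mixed. Deviations of arrays with the same letter correlated at -0.04 to 0.12. Calls over all genes ranged from 249 to 5444 (791 with all arrays), 49 to 1235 (374) and 8 to 2147 (101) in the order of these comparisons.

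The differences that turned were all of claudins not called in that comparison. In hippocampal Sox2-GFP against DCX-DsRed cells these were Cldn10 with slide as a block (-1.13) and Cldn5 with array weights (0.05) and with 1 array left out (-0.62 to 0.22). In SVZ against DCX-DsRed cells they were Cldn12 under normexp (0.25), with dim signals raised (0.02) and with 1 array left out (-3.42 to 0.79), Cldn9 with slide as a block (0.01), and Cldn5 with 1 array left out (-0.83 to 0.19). In SVZ against hippocampal Sox2-GFP cells they were Cldn5 under normexp (-0.005), quantile normalization (-0.06), array weights (-0.14) and with 1 array left out (-0.64 to 0.43), and Cldn11 with slide as a block (0.11) and with 1 array left out (-0.87 to 0.05). Within slide 3, where each difference has no test, Cldn10 turned in hippocampal Sox2-GFP against DCX-DsRed cells (-0.41), Cldn3 (-0.15), Cldn9 (0.26) and Cldn12 (3.80) in SVZ against DCX-DsRed cells, and Cldn11 in SVZ against hippocampal Sox2-GFP cells (0.12). The causes were not tested. With 1 array left out, its group's spread is taken from the other groups too. Precision is limited by 3 arrays a group, and dim probes (Cldn1, Cldn12) by background.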
